A study of Mus musculus with 18 samples.

Results

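Stromal cells of visceral fat and of bone marrow from male C57BL/6J mice of the HFD arm were compared by 3′ RNA sequencing, with 4 libraries of adipose stroma and 4 of bone marrow stroma, 8 of the 18 libraries of the series. The members are all libraries of both tissues whose names carry HFD and whose treatment label is no, and the choice used no measured value. The adipose libraries are titled mAT-MSC VAT and the marrow libraries mBMSC, which the labels do not spell out and which usually stand for mesenchymal stromal cells of visceral adipose tissue and of bone marrow. Both groups share the strain, the sex, the genotype label Ctrl and the absence of the glutamine treatment that the other 10 libraries received. All 18 libraries carry HFD in their names, which usually stands for a high-fat diet but is not spelled out in the labels (the series title speaks of obese mice), and neither age nor the time on diet is given. Each library carries a pair of numbers, 1_3, 5_11, 14_17 or 23_28, and each pair occurs once in each tissue. The labels do not say whether a pair marks 2 pooled animals, so p-values measure only the spread between libraries, which may be technical. Nothing in the labels says whether the cells were cultured, sorted or taken fresh.

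Stromal cells of both tissues make extracellular matrix and can give rise to fat cells, and those of marrow also to bone and cartilage cells. In marrow, stromal cells that make the chemokine CXCL12 and carry the leptin receptor hold blood stem cells and lymphoid precursors in place. In visceral fat, stromal progenitors marked by PDGFRA lie beside vessels and under the mesothelium, the sheet of cells that covers the organ, and resident macrophages are abundant between the fat cells. A stromal preparation of either tissue can therefore carry RNA of neighbouring cell types, and a lower level in such bulk samples cannot separate fewer cells of a type from less RNA per cell.

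Adipose libraries held 35871168 to 54016048 counts and marrow libraries 20138289 to 37984603, and the ranges overlapped (two-sided exact permutation test, 4 against 4, p = 0.0571). The libraries differed far more in breadth than in depth. At 10 CPM or more (CPM, counts scaled to a common library total of 1000000), 8990 to 9259 genes were present in each adipose library. In marrow the number was 3667 in 1_3, 3945 in 5_11, 2065 in 14_17 and 1670 in 23_28 (exact permutation p = 0.0286, the smallest that 4 against 4 allows, and 0.0457 after Benjamini-Hochberg adjustment over 8 library measures). At 100 CPM or more the ranges overlapped, with 1989 to 2081 genes in adipose and 2339, 2195, 1497 and 1314 in these marrow libraries. One gene, Col1a1, took 8.74%, 19.8%, 23.0% and 5.03% of all counts in the same 4 marrow libraries, whereas the leading gene of each adipose library, the actin-severing protein gene Gsn, took 1.43% to 2.14%. Marrow libraries also stood apart from each other. Pearson correlations of log2 CPM over 8665 genes were 0.770 to 0.905 among adipose libraries, 0.250 to 0.300 among marrow libraries and 0.210 to 0.305 between tissues. Of the genes that reached 10 CPM in any marrow library, 404 did so in all 4 and 3627 in 1 alone. Genes encoded by mitochondria took 0.0195% ± 0.0044 (SD, n = 4) of counts in adipose and 0.0623% ± 0.0260 in marrow, and haemoglobin genes 0.785% ± 0.669 and 0.866% ± 0.599.

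The scaling between tissues decided much of the count of calls. The main fit used edgeR's quasi-likelihood test with TMM factors, which were 2.32 to 3.02 in adipose and 0.286 to 0.497 in marrow. Of 11267 genes tested, 5132 (45.5%) had an adjusted p under 0.05, 4418 (39.2%) higher in adipose and 714 (6.34%) higher in marrow. RLE factors spread further, from 0.0883 in marrow to 8.77 in adipose, and gave 1525 genes higher in adipose and 3418 in marrow, whereas library totals alone gave 4788 and 108. Over all genes tested, the median of the log2 differences moved with the scaling, from -3.81 with RLE factors through -0.68 with TMM to 2.01 with totals alone. Upper-quartile and TMMwsp factors ranged from 0.0341 to 2.43 and from 0.0397 to 1.36 within marrow, and gave 112 and 2212 calls. The filter on low counts mattered as well. With at least 10 CPM in 4 libraries, TMM factors in marrow ran from 0.0325 to 1.70 and edgeR called 0 of 7577 genes, with 2746 at an unadjusted p under 0.05, whereas RLE factors gave 5121 calls and totals alone 2316. The plot of calls by scaling shows how the 2 directions trade places.

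**Figure D1:**
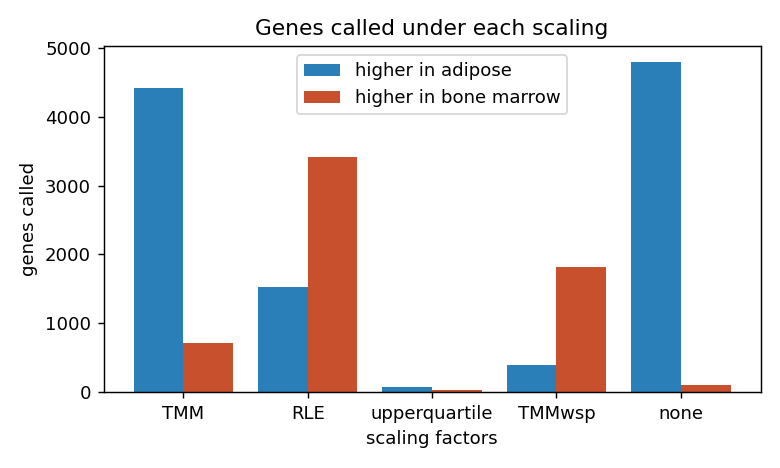
Bars give the number of genes called by edgeR at an adjusted p under 0.05 (y axis) in each direction under 5 kinds of scaling factor (x axis), 4 adipose against 4 marrow libraries. Calls higher in adipose lead with TMM factors (4418 against 714) and with no factors (4788 against 108), and calls higher in marrow lead with RLE (3418 against 1525).

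In what follows a gene is called higher in a tissue only where it passed in that direction with TMM, with RLE and with library totals alone, a rule chosen after the scalings had been compared. It was met by 1525 genes in adipose (13.5% of those tested) and by 108 in marrow (0.959%). The 1525 and 108 genes equal the calls with RLE factors for adipose and those with totals alone for marrow. Under all 5 scalings 40 genes were called higher in adipose (0.355%) and 27 in marrow (0.24%). The plain order of CPM values needs no test across genes. It does rest on library totals, the scaling that gave the most adipose calls (4788), and another scaling could change it. In 5308 genes (47.1%) every adipose library was above every marrow library, and in 80 genes (0.71%) every marrow library was above every adipose one. Leaving out 1 library moved the adipose calls to between 342, without adipose 1_3, and 1386, without marrow 23_28. They were 546 without adipose 5_11, 433 without adipose 14_17, 575 without adipose 23_28, 674 without marrow 1_3 and 671 without marrow 5_11. The marrow calls were 71 without adipose 1_3, and 169, 189 and 192 without marrow 5_11, 14_17 and 23_28. The 32 called genes followed through these fits kept their direction and their TMM call each time. Without both marrow libraries with the fewest genes (14_17 and 23_28), 1406 genes were called in adipose and 449 in marrow. Levels are printed as CPM of the library total with no further factor, in the order 1_3, 5_11, 14_17 and 23_28, and log2 differences as adipose minus marrow with TMM factors and their standard error (SE).

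Bone matrix genes stood far higher in marrow. Of the 15 genes listed for mineralized matrix, 9 were tested, 6 were called higher in marrow and none higher in adipose (background 0.959% and 13.5%), and their median log2 difference was -7.39 beside -0.68 for all genes tested. Col1a1 encodes the main chain of type I collagen, the bulk protein of bone. It stood at 5279, 6455, 7305 and 5536 CPM in adipose and at 87377, 197529, 229651 and 50299 CPM in marrow. All marrow libraries were above all adipose libraries (log2 difference -7.39 ± 0.52 SE, edgeR adjusted p = 0.000335). Its partner chain Col1a2 stood at 4082, 2461, 4216 and 4912 CPM in adipose and 41487, 46041, 62117 and 12297 CPM in marrow (log2 difference -6.18 ± 0.48 SE, edgeR adjusted p = 0.000419), again without overlap.

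The noncollagenous bone proteins were close to absent from adipose. Ibsp, the gene of bone sialoprotein, which nucleates mineral, stood at 3.05, 2.48, 3.39 and 4.62 CPM in adipose and 1899.8, 1548, 3199 and 849.7 CPM in marrow (log2 difference -11.95 ± 0.89 SE, edgeR adjusted p = 0.000335). It was high in each marrow library. Bglap encodes osteocalcin, made by mature osteoblasts, and stood at 2.18, 2.62, 2.88 and 2.62 CPM in adipose. In marrow it was at 8.45, 1419, 5865 and 899 CPM, so 1_3 was only just above the adipose range while the others were high (log2 difference -12.63 ± 1.92 SE, edgeR adjusted p = 0.000589). Bglap2, its neighbouring copy, reached 316, 1119.5, 1231 and 1.94 CPM in marrow and 0.641 to 1.10 CPM in adipose. The last 100 bases of the longest coding transcripts of the copies in GENCODE M21 are identical in all 100 positions, so 3′ reads may be shared out between them in a way these counts do not show. Spp1, osteopontin, stood at 871, 1211, 4.75 and 470.3 CPM in marrow, where 14_17 lay inside the adipose range of 3.48 to 17.7 CPM. Sparc, osteonectin, a collagen binder of many tissues, was high in both, at 6784, 8472, 9684 and 4841 CPM in adipose and 8884, 20345, 32544 and 7633 CPM in marrow, and was not called.

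The stretches before the starts of Bglap and Spp1, the 2 called bone genes whose windows hold a RUNX-type motif, are shown because RUNX2 is the factor known for switching on the osteoblast genes. They are the 250 bases before the start as RefSeq annotates it on GRCm38.p6, at chr3:88384467-88384716 on the minus strand for Bglap and chr5:104434861-104435110 on the plus strand for Spp1, written 5′ to 3′ with the match in capitals.
Bglap: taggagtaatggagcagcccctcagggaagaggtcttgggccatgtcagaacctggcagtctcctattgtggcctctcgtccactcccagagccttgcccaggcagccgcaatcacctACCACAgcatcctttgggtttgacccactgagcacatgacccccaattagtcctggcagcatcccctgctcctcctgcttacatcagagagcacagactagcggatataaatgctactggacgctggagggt
Spp1: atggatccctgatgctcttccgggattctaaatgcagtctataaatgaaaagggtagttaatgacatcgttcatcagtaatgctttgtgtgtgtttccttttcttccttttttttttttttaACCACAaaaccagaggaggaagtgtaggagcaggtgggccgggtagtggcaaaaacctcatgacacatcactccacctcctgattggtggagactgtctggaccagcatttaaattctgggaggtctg
The motif searched was TGTGGT on either strand, which reads ACCACA on the other. The match begins 132 bases before the start in Bglap and 128 bases before it in Spp1. Windows of 4303 of 27025 genes (15.9%) hold it, as do 4 of the 13 bone matrix genes with a window (30.8%), and that of Ibsp holds none. A match is a description of letters, and binding was not measured.

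The factors of the osteoblast lineage were not regular across marrow. Runx2 stood at 3.5, 5.66, 4.22 and 13.3 CPM in adipose and at 0.316, 59.8, 347 and 0.546 CPM in marrow, high in 5_11 and 14_17 and below adipose in the other libraries. Sp7, the osteoblast factor osterix, was at 147 CPM in marrow 1_3 and below 1 CPM in each of the other 7 libraries. Dlx5 was at 203 CPM in marrow 5_11 alone, and below 1 CPM elsewhere. Of 10 listed factors tested, Dlx3 was called higher in marrow (background 0.959%). Zfp521, a restrainer of fat cell formation, was called higher in adipose, a share not above the background of 13.5%. Late osteocyte genes (Dmp1, Mepe, Sost) did not reach 10 CPM in any of the 8 libraries.

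**Figure D2:**
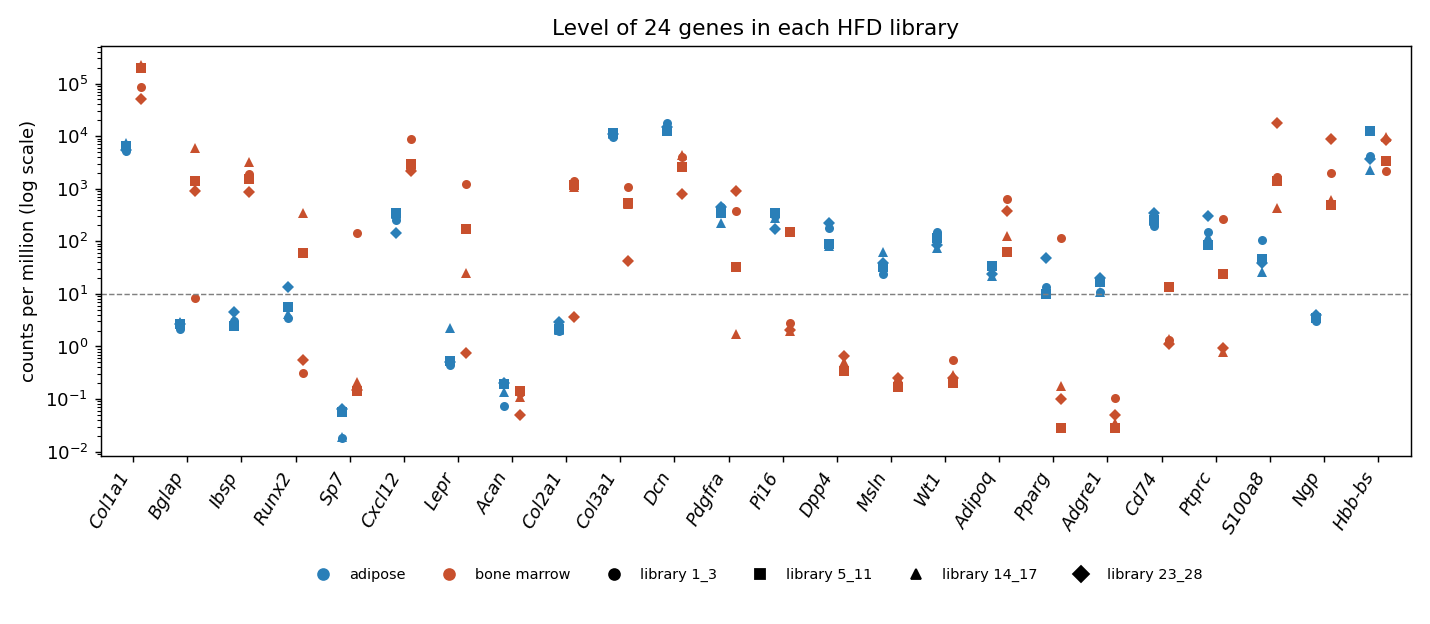
Points give the level of 24 genes (x axis) in each library in CPM on a log scale (y axis), adipose in blue and bone marrow in orange, with 1 marker shape for each number pair and a dashed line at 10 CPM. Adipose libraries lie close together for most genes, whereas marrow libraries often split into a high and a low position, as for Runx2, Lepr and Pparg.

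Cartilage collagens accompanied the bone genes in marrow. Of 12 listed cartilage genes tested, 8 were called higher in marrow and none in adipose (background 0.959% and 13.5%), and the median log2 difference was -10.35. Col11a1, a chain of the thin fibrils of cartilage that osteoblasts make as well, stood at 5.89, 5.49, 6.10 and 6.89 CPM in adipose and 1573, 3187, 3731 and 898 CPM in marrow (log2 difference -11.44 ± 0.83 SE, edgeR adjusted p = 0.000335), with no overlap. Col2a1, the main collagen of cartilage, stood at 1.96, 2.12, 2.09 and 2.95 CPM in adipose and 1434, 1197, 1077 and 3.58 CPM in marrow (log2 difference -11.35 ± 1.76 SE, edgeR adjusted p = 0.000625). It was high in 3 marrow libraries and barely above adipose in 23_28. Prg4, lubricin of joint surfaces, stood at 4112, 2292, 3028 and 66.8 CPM in marrow and 9.99 to 29.0 CPM in adipose. Acan, the aggrecan gene that defines mature cartilage, stayed below 1 CPM in all 8 libraries, and Matn1 had no count. Marrow 1_3, 5_11 and 14_17 thus held Col2a1 with Acan below 1 CPM, whereas 23_28 was low in both. In the glutamine arm Acan reached 10 CPM in 4 of 5 marrow libraries, and the reason for its low level here was not tested.

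Some factors of the marrow niche were higher in marrow. Of 10 tested, 4 were called there (Cxcl12, Lepr, Ebf3 and Foxc1) and none in adipose (background 0.959% and 13.5%), with a median log2 difference of -4.49. Of these 4 genes, 3 did not overlap (0.71% of all genes tested). Cxcl12 stood at 259, 346, 325 and 143 CPM in adipose and 8921, 2940.2, 2813 and 2200.4 CPM in marrow (log2 difference -6.72 ± 0.55 SE, edgeR adjusted p = 0.000481), without overlap and highest in 1_3. Foxc1, a factor needed by the CXCL12-rich cells, stood at 822, 490.2, 327 and 327 CPM in marrow and 16.1 to 49.7 CPM in adipose. Lepr, the leptin receptor, stood at 1225, 175, 24.6 and 0.745 CPM in marrow, so 23_28 lay inside the adipose range of 0.444 to 2.28 CPM. Kitl and Vcam1 were each above 100 CPM in 3 marrow libraries and at 0.993 and 2.18 CPM in 23_28, and neither was called. The fat hormone gene Adipoq, which niche cells of marrow are known to share with fat cells, was higher in marrow, at 645, 62.8, 125 and 384 CPM beside 34.2, 33.6, 21.6 and 23.7 CPM in adipose (log2 difference -6.23 ± 1.28 SE, edgeR adjusted p = 0.00229).

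Blood cell transcripts of marrow were present beside the stromal ones. Of 12 neutrophil granule and alarmin genes tested, 10 were called higher in marrow and none in adipose (background 0.959% and 13.5%). Their median log2 difference was -11.59, and 2 of the 18 listed genes reached 10 CPM in all adipose libraries. Ngp, a granule protein of immature neutrophils, stood at 3.07, 3.43, 3.70 and 3.99 CPM in adipose and 2035, 499, 598 and 8841 CPM in marrow (log2 difference -12.80 ± 1.46 SE, edgeR adjusted p = 0.000491). S100a8, the calgranulin A gene, stood at 106, 46.8, 26.6 and 38.6 CPM in adipose and 1677, 1396, 421 and 17468 CPM in marrow (log2 difference -9.75 ± 1.53 SE, edgeR adjusted p = 0.000649). Neither gene overlapped, and both were highest in 23_28, the library with the fewest genes. The summed neutrophil list ran from 74.1 to 307 CPM in adipose and from 4668 to 57283 CPM in marrow, and the share of this cell type in any other marrow difference was not tested. Ly6g, a surface mark of mature neutrophils, had no count in any library.

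Red cell genes divided. The erythroid factors and membrane genes were called higher in marrow (7 of 13 tested, none in adipose, background 0.959% and 13.5%, median log2 difference -10.61), among them Klf1 and Gata1, the latter at 327, 19.8, 31.4 and 197 CPM in marrow and 0.136 to 0.286 CPM in adipose. Haemoglobin itself was not. Hbb-bs, a beta globin gene, stood at 4277, 12674, 2259 and 3709.7 CPM in adipose and 2219.9, 3339, 9461 and 8292 CPM in marrow, and the ranges overlapped. The alpha globin copies Hba-a1 and Hba-a2 are near-identical, so their single values are uncertain. Car2, the carbonic anhydrase of red cells and osteoclasts, stood at 2286, 1124, 529 and 4374 CPM in marrow and 2.90 to 7.49 CPM in adipose.

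Some genes of dividing cells were higher in marrow. Of 20 mitosis genes tested, 5 were called higher in marrow (Mki67, Top2a, Cdk1, Ccnb2 and Cdc20) and none in adipose, and of 16 replication genes tested, Mcm6 and Mcm7 were (median log2 differences -6.25 and -5.67). Mki67, the proliferation antigen, stood at 51.7, 74.3, 16.6 and 44.2 CPM in adipose and 737, 719, 85.7 and 2078 CPM in marrow (log2 difference -7.24 ± 1.27 SE, edgeR adjusted p = 0.00101). Top2a, the topoisomerase that untangles replicated chromosomes, stood at 39.1, 70.8, 68.6 and 31.6 CPM and 1097, 564, 208 and 1933 CPM (log2 difference -7.15 ± 1.06 SE, edgeR adjusted p = 0.000558). Both were highest in 23_28, as were Ngp and S100a8, and whether the dividing cells are stromal or of the blood lineage was not tested.

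**Figure D3:**
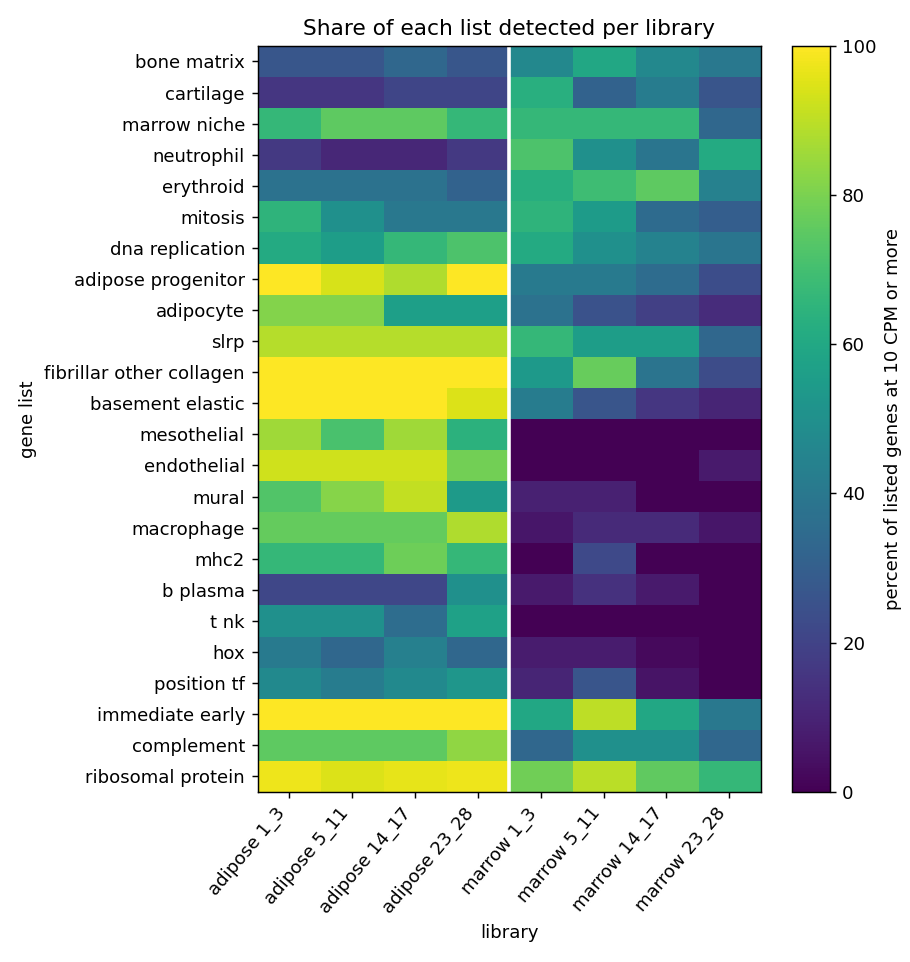
Colours give the share of each gene list (y axis) at 10 CPM or more in each library (x axis), as a percent of the listed genes in the files. Mesothelial and T and NK cell lists are at 0 in all 4 marrow libraries, whereas bone matrix, cartilage, neutrophil and erythroid lists are fuller in marrow than in adipose.

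On the adipose side, mesothelial genes stood far above marrow. Of 10 listed genes tested, 6 were called higher in adipose and none in marrow (background 13.5% and 0.959%, median log2 difference 5.09). None of the 14 listed genes reached 10 CPM in any marrow library. Their summed level was 423 to 902 CPM in adipose and 1.87 to 3.57 CPM in marrow. Wt1, a factor of the mesothelium and of visceral fat progenitors, stood at 147, 113, 75.8 and 85.4 CPM in adipose and 0.553, 0.201, 0.286 and 0.248 CPM in marrow (log2 difference 5.55 ± 0.98 SE, edgeR adjusted p = 0.00103). Rspo1, a secreted enhancer of WNT signals, stood at 145, 88.2, 153 and 113 CPM in adipose and 0.421, 0.288, 0.607 and 0.298 CPM in marrow (log2 difference 5.38 ± 1.05 SE, edgeR adjusted p = 0.0017). Msln, the gene of mesothelin, stood at 24.4, 32.1, 62.0 and 38.7 CPM and 0.184, 0.173, 0.250 and 0.248 CPM, without overlap, and missed the call with RLE factors (adjusted p = 0.0530). With RLE factors the adjusted p of Wt1 and Rspo1 was 0.0353 and 0.0471 in the edgeR test, so these calls sit near the threshold.

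Absence in marrow needs a yardstick, because many genes of any kind were missing there. Of 6814 genes at 10 CPM or more in all 4 adipose libraries, 2223 (32.6%) reached 10 CPM in no marrow library. The share was 47.5% for genes with an adipose mean of 10 to 50 CPM, 24.7% for 50 to 200 CPM and 9.61% above 200 CPM. Against this, all 8 mesothelial genes that were in all adipose libraries were in no marrow library, as were 9 of 10 endothelial, 9 of 12 macrophage, 4 of 4 T and NK cell, 4 of 6 mural and 4 of 6 MHC class II genes. So were 6 of 7 position factors, 6 of 9 chemokines and 3 of 4 osteoclast genes. In contrast 0 of 8 marrow niche genes, 0 of 9 complement genes, 0 of 10 immediate early genes and 1 of 74 ribosomal protein genes were missing from all marrow libraries. The lists differ in level, as all 74 ribosomal protein and all 10 immediate early genes had an adipose mean of 50 CPM or more. Of the 8 mesothelial genes 4 did, and of the 4 T and NK cell genes 1. At that level 4 of 4 mesothelial, 7 of 8 endothelial and 5 of 8 macrophage genes were in no marrow library.

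Vessel genes followed this line without being called. Kdr, the main VEGF receptor of endothelium, stood at 309.9, 450.3, 518 and 155 CPM in adipose and 2.47, 1.01, 1.86 and 1.39 CPM in marrow, and Cdh5, the cadherin of endothelial junctions, at 162, 147, 188 and 123 CPM and 1.05, 0.259, 0.643 and 0.695 CPM. Of 13 endothelial genes tested, 12 passed with TMM factors (background 39.2%) and none under the 3 scalings in either direction (median log2 difference 4.58). In 11 the libraries did not overlap, beside 47.1% of all genes tested. Egfl7 was the exception in level, with 7.50, 0.633, 0.821 and 717 CPM in marrow and 61.5 to 204 CPM in adipose. Of 8 mural genes tested, Myh11, the smooth muscle myosin, and Kcnj8 were called higher in adipose (background 13.5%), with Myh11 at 84.3, 127, 83.2 and 16.2 CPM and 0.263, 0.403, 0.250 and 0.199 CPM.

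Tissue macrophage genes were called higher in adipose in 7 of 14 tested (background 13.5%) and in marrow in none (median log2 difference 5.31). Adgre1, which encodes the macrophage marker F4/80, stood at 10.7, 17.1, 10.9 and 20.0 CPM in adipose and 0.105, 0.0288, 0.0357 and 0.0497 CPM in marrow (log2 difference 5.30 ± 0.66 SE, edgeR adjusted p = 0.000491). Lyve1, Folr2 and Mrc1, markers of resident macrophages, and Trem2, a lipid-sensing receptor, were each below 1 CPM in every marrow library. Lyz2, the lysozyme that neutrophils and macrophages share, stood at 299, 577, 324 and 790.1 CPM in adipose and 408, 576, 494 and 1586 CPM in marrow, with overlap, and was not called. The antigen presentation gene Cd74 stood at 194, 255, 242 and 341 CPM in adipose and 1.32, 13.2, 1.39 and 1.09 CPM in marrow, a difference without overlap that failed with TMM (log2 difference 3.20 ± 1.39 SE, edgeR adjusted p = 0.0864).

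Lymphocyte genes were higher in adipose as well. Of 8 T and NK cell genes tested, 5 were called higher in adipose (Trac, Trbc2, Gzma, Il7r and Cd28) and none in marrow (background 13.5% and 0.959%, median log2 difference 5.46). The summed list was 130 to 354 CPM in adipose and 0.604 to 0.790 CPM in marrow. Il7r, the receptor for interleukin 7, stood at 60.1, 95.0, 41.7 and 84.1 CPM in adipose and 0.184, 0.0863, 0.107 and 0.298 CPM in marrow (log2 difference 5.83 ± 0.96 SE, edgeR adjusted p = 0.000766). Ighm, the heavy chain of IgM, stood at 1627, 469, 723 and 3269.9 CPM and 3.90, 111, 4.14 and 3.82 CPM, and was not called. The B cell precursor genes Vpreb3, Igll1, Rag1 and Dntt stayed below 1 CPM in all 8 libraries. Platelet factor gene Pf4, also made by macrophages, was called higher in adipose (log2 difference 5.75 ± 1.07 SE, edgeR adjusted p = 0.00135).

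Adipose progenitor genes differed in how far they were from marrow. Of 17 tested, 3 were called higher in adipose (Wnt2, Icam1 and F3) and none in marrow, a share near the background of 13.5%. In 12 the libraries did not overlap, beside 47.1% of all genes tested. Their median log2 difference was 1.92 with TMM factors and turned to -1.34 with RLE factors. Dpp4, a protease that marks early progenitors, stood at 181, 88.0, 80.0 and 226 CPM in adipose and 0.369, 0.345, 0.50 and 0.646 CPM in marrow (log2 difference 5.37 ± 1.20 SE, edgeR adjusted p = 0.00366), and missed the call with RLE factors (adjusted p = 0.0593 in the edgeR test). Pi16, found on the same progenitors, stood at 308, 343, 272 and 169 CPM in adipose and 2.82, 148, 1.96 and 2.09 CPM in marrow, with only 5_11 high. Pdgfra, which stroma of both tissues is known to share, stood at 458, 347, 227 and 443 CPM and 379.7, 32.8, 1.75 and 895 CPM, and the ranges overlapped. Of 11 fat cell genes tested, Plin1 and Lipe, a droplet coat protein and a lipase, were called higher in adipose (background 13.5%) and Adipoq, named above, in marrow, and the median log2 difference was -1.82. Fabp4, the fatty acid carrier of fat cells and vessels, stood at 1703, 845, 1504 and 1411 CPM in adipose and 4.26 to 5.58 CPM in marrow.

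Of 13 collagen genes tested beside type I, none was called in either direction. In CPM, 8 did not overlap and were higher in adipose (47.1% of all genes tested), and Col5a2, a chain of the collagen that starts type I fibrils, was higher in marrow, at 602, 462, 583 and 644 CPM in adipose and 1145, 1525, 3059.9 and 686 CPM in marrow. Col3a1, the collagen of soft connective tissue, stood at 9531, 11674, 11001 and 10940.2 CPM in adipose and 1080.0, 547, 522 and 41.4 CPM in marrow (log2 difference 1.63 ± 0.72 SE, edgeR adjusted p = 0.0899). Dcn, the collagen-binding proteoglycan decorin, stood at 18116, 12281, 13663 and 15070.2 CPM and 4050.1, 2637, 4358 and 805 CPM. Neither gene overlapped in CPM, and neither was called. The direction of Dcn turned from 2.32 with totals alone to -0.47 with TMM and -3.70 with RLE factors, and that of Col3a1 from 4.30 and 1.63 to -1.56. Of 19 genes of basement membrane and elastic fibres tested, 17 did not overlap and were higher in adipose (47.1% of all genes tested), while Vtn alone was called, below the background of 13.5% (median log2 difference 4.40). Eln, elastin, stood at 592, 536, 644 and 600.2 CPM in adipose and 4.19, 2.13, 3.36 and 3.33 CPM in marrow, and Hspg2, perlecan, at 851, 784, 623 and 794 CPM and 3.24, 2.16, 3.11 and 2.23 CPM. Fn1, fibronectin, was closer, at 3700.2, 3989, 3283 and 4646 CPM and 1691, 1698, 1285 and 1489.6 CPM, and its direction turned with TMM factors (log2 difference -1.49 ± 0.45 SE, edgeR adjusted p = 0.0195).

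Hox genes, which record position along the body, were in part higher in adipose. Of 9 at 10 CPM or more in all adipose libraries, 6 reached it in no marrow library, beside 32.6% of all such genes. Of 18 Hox genes tested, 6 were called higher in adipose (Hoxa4, Hoxa7, Hoxb2, Hoxb7, Hoxc4 and Hoxd8; background 13.5%) and none in marrow (median log2 difference 4.92). Hoxa5 stood at 213, 222, 198 and 129 CPM in adipose and 0.869, 2.36, 0.750 and 0.397 CPM in marrow. Hoxa3 at 328 CPM in 1_3 and Hoxd4 at 239 CPM in 14_17 were high in 1 marrow library each. Of 11 other position genes tested, Tcf21 and Gata6, factors of visceral mesenchyme, were called higher in adipose, which is near the background of 13.5%. Gata6 stood at 103, 65.3, 52.8 and 78.6 CPM and 0.369, 0.201, 0.250 and 0.199 CPM.

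Secreted signals were divided. Ccl7, Cxcl10 and Cxcl16, which attract monocytes and T cells, were called higher in adipose (3 of 11 chemokines tested, background 13.5%, none in marrow). Il6 and Tnf, the inflammatory cytokines studied in obese fat, were called higher in adipose among 8 genes that steer osteoclasts (background 13.5%), with Il6 at 60.2, 49.5, 42.7 and 69.1 CPM and 0.369, 0.316, 0.250 and 0.248 CPM. None of the 8 was called in marrow, Pth1r passed there with TMM factors (log2 difference -7.94 ± 2.04 SE, edgeR adjusted p = 0.00805), and the median log2 difference of the list was -2.64. Serping1, the complement C1 inhibitor, was high in both, at 3770.5, 2504, 3165 and 2879.5 CPM in adipose and 1987, 1103, 1261 and 1976 CPM in marrow, and its direction turned with TMM factors (log2 difference -1.93 ± 0.49 SE, edgeR adjusted p = 0.00754). Glul, which makes glutamine, stood at 485, 443, 517 and 411 CPM in adipose and 22.1, 1.84, 2.21 and 2.09 CPM in marrow, whereas Slc38a2, a glutamine carrier, stood at 618, 813, 499 and 456 CPM and 692, 1236, 281 and 595 CPM.

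By size, the largest differences among marrow calls that did not overlap, averaged 5 or more in log2 CPM and reached 10 CPM in all 4 marrow libraries (which leaves out Bglap and Col2a1) were those of Camp, Ngp, Col22a1, Add2, Gata1, Ibsp, Car1, Car2, Col11a1 and Mpo. Among them, Camp, Ngp and Mpo are on the neutrophil list, Gata1 and Car2 on the erythroid list, Ibsp on the bone list and Col11a1 on the cartilage list. Add2, Car1 and Col22a1 are on none of these lists. Col22a1, a collagen of tissue junctions, stood at 283, 297, 620.2 and 190.0 CPM in marrow and below 1 CPM in all adipose libraries (log2 difference -12.59 ± 1.43 SE, edgeR adjusted p = 0.000491). With Add2 and Gata1 it was called under all 5 scalings. In adipose the rule gave Rgs1, a signal regulator of lymphocytes, at 115, 137, 85.0 and 306 CPM against 0.421, 0.604, 0.429 and 0.149 CPM, and Tubb6, a tubulin. Of 277 genes at 50 CPM or more in all 4 marrow libraries, 11 (3.97%) were under 1/32 of their marrow mean in all 4 adipose libraries: S100a9, S100a8, Ngp, Prg4, Col11a1, Camp, Car2, Ibsp, Car1, Col22a1 and Add2.

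Marrow levels fell into 2 states. For the 2659 genes at 50 CPM or more in every adipose library, the ratio of marrow CPM to the adipose mean had 2 peaks, a broad one around 1 and a narrow one far below it. A level under 1/32 of the adipose mean, a border set after seeing the ratios, held for 39.9%, 37.7%, 60.1% and 70.6% of genes in 1_3, 5_11, 14_17 and 23_28. Only 65 to 94 genes per library lay between 1/64 and 1/16. The genes in the low state sat at a median of 0.591%, 0.381%, 0.532% and 0.515% of the adipose mean. The others had a median log2 ratio of 0.05, -0.25, 0.09 and 0.84. Which genes were low differed between libraries, as 334 were low in none, 572 in 1, 712 in 2, 624 in 3 and 417 in all 4. The source of this low residue, which is nearly the same share of the adipose level in all 4 libraries, was not tested. A log2 difference printed here for a gene in the low state in all marrow libraries is therefore a difference from that residue. In the other direction, the 11 marrow genes under 1/32 in all adipose libraries had a median adipose level of 0.19% of their marrow mean. Their differences are likewise measured from a low level whose source was not tested.

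**Figure D4:**
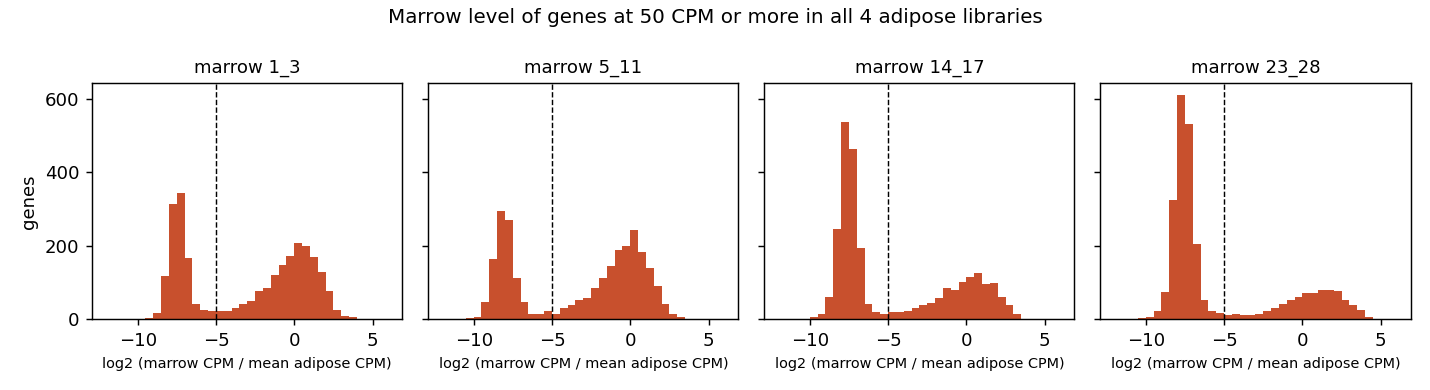
Histograms count genes (y axis) by the log2 ratio of their marrow CPM to their mean adipose CPM (x axis) in each of the 4 marrow libraries, for the 2659 genes at 50 CPM or more in every adipose library, with a dashed line at 1/32. Each library shows 2 separate peaks, and the left peak holds 39.9%, 37.7%, 60.1% and 70.6% of the genes.

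Ratios of 2 genes within a library do not depend on any scaling. The log2 ratio of Col1a1 to Col3a1 was -0.82 ± 0.16 (SD, n = 4) in adipose and 8.47 ± 1.61 in marrow, so Col1a1 exceeded Col3a1 in each marrow library and in no adipose library. Col1a2 over Dcn was -1.95 ± 0.34 and 3.81 ± 0.33, and Sparc over Dcn was -1.02 ± 0.59 and 2.56 ± 0.96. Cxcl12 over Pdgfra was -0.49 ± 0.94 and 5.74 ± 3.90, and S100a8 over Ptprc, the general leukocyte gene, was -1.64 ± 1.15 and 7.92 ± 4.90. In these 5 of 11 pairs no adipose library overlapped a marrow library. Each had the smallest p of an exact two-sided permutation test (p = 0.0286), which is 0.0629 after adjustment over the pairs, so none passed 0.05. The other 6 pairs overlapped, with exact permutation p from 0.143 for Bglap over Col1a1 to 0.314 for Runx2 over Pparg. Some of the largest ratios rest on a denominator in the low state. S100a8 over Ptprc was 9.03 in marrow 14_17 and 14.1 in 23_28, where Ptprc had 22 and 19 counts. It was 2.65 in 1_3 and 5.84 in 5_11. Cxcl12 over Pdgfra was 10.6 in marrow 14_17, where Pdgfra had 49 counts.

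**Figure D5:**
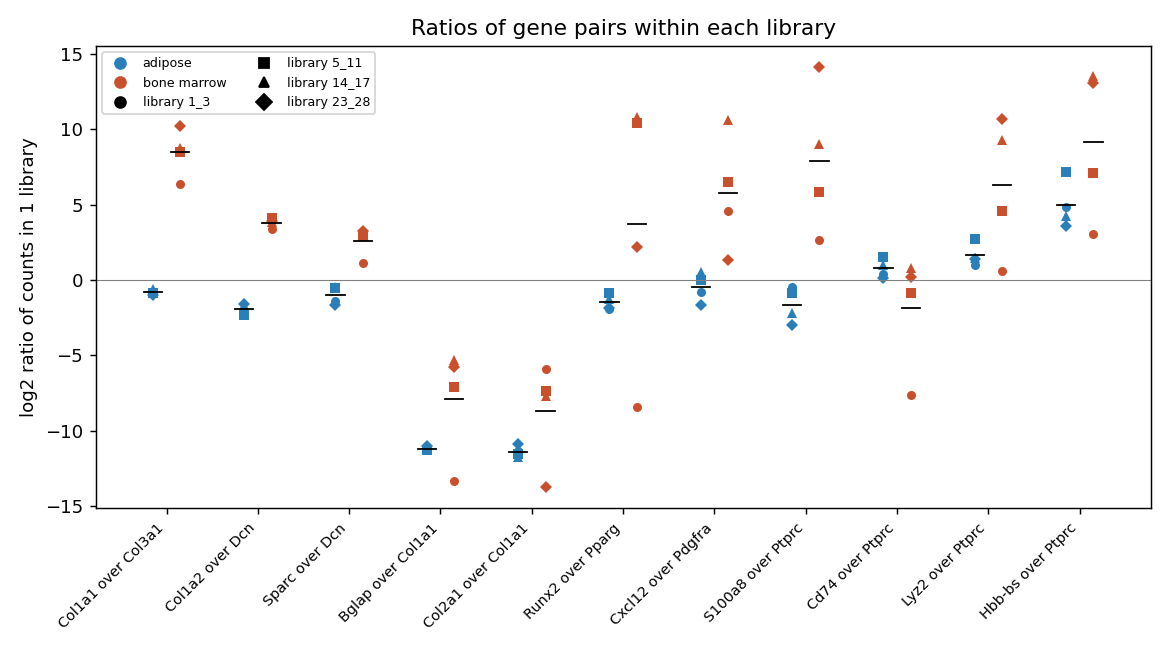
Points give the log2 ratio of the counts of 2 genes within 1 library (y axis) for 11 pairs (x axis), adipose in blue and marrow in orange, with black bars at the means of 4 libraries. Adipose points lie close together, and for Col1a1 over Col3a1, Col1a2 over Dcn, Sparc over Dcn, Cxcl12 over Pdgfra and S100a8 over Ptprc the tissues do not overlap.

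The same contrast in the glutamine arm used 5 adipose and 5 marrow libraries that the HFD comparison did not use. There 22.1% of 12458 genes tested were called higher in adipose and 26.3% higher in marrow with TMM factors in edgeR. Of the 108 marrow calls of the HFD arm, 95 (88.0%) were called the same way and none the opposite way. Of the 1525 adipose calls, 645 (42.3%) were called the same way and 79 the opposite way. By CPM alone, 938 of the 1525 did not overlap in the same direction (61.5%, beside 32.2% of all genes tested), and 48 of the 108 (44.4%, beside 0.888%). All 8 mesothelial genes and all 4 T and NK cell genes missing from HFD marrow were below 10 CPM in every glutamine marrow library as well, and so were 7 of 9 endothelial and 8 of 9 macrophage genes. Over all such genes it was 809 of 2223 (36.4%). Wt1 was at 0.256 to 0.430 CPM in the 5 glutamine marrow libraries, and Ibsp at 346 to 4481 CPM.

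A test of the difference between arms, fitted to all 18 libraries, called 1811 of 15203 genes (11.9%) with TMM factors and 2151 with totals alone. With RLE factors edgeR called 0, with 4244 genes at an unadjusted p under 0.05 and a smallest adjusted p of 0.0501. No gene was called under all 3 scalings. The tissue difference of the HFD arm was therefore not shown to differ from that of the glutamine arm under every scaling for any gene.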

How the data were processed

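Whole-number counts per gene were deposited by the authors in a table for each tissue, and the column names were matched to the labels. The exception was 1 glutamine marrow column, whose number pair is in no title and which was placed by its prefix and tissue. Per the labels' protocols, 3′ libraries (QuantSeq, forward, read 1) were made from 30 ng of total RNA. Per the submitters' processing notes, FastQC 0.12.1, STAR 2.7.10b and HTSeq 0.11.3 were used with GRCm38. The sources used here do not give the annotation, strand setting or treatment of duplicates, and no molecular identifiers are named.

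The counts of the 8 HFD libraries (20138289 to 54016048 per library) were fitted together with edgeR 4.0.16 (filterByExpr, quasi-likelihood test, two-sided, Benjamini-Hochberg over 11267 genes, threshold 0.05) in R 4.3.3. TMM factors were the main scaling, and RLE, upper-quartile, TMMwsp and no factors were alternatives, as were DESeq2 1.42.0, limma 3.58.1 (voom with quality weights), other filters, thinned counts and leaving out each library. The rule of passing with TMM, RLE and no factors was added after the scalings were seen. CPM values are counts divided by the library total and multiplied by 1000000, and ratios of genes use counts plus 0.5. Library measures and ratios were compared by exact permutation tests. The glutamine arm was fitted alone, and the difference between arms in all 18 libraries. P-values cover counting and library error only, and reads may hold copies of 1 molecule.

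Gene lists, the 24 genes of the panel and the comparison itself were chosen with earlier results of these data known. Named genes are this panel, the genes of 11 pairs, the 2 members of each of 40 lists with the highest mean CPM, and up to 10 genes per direction with the largest difference (average log2 CPM of at least 5, no overlap, 10 CPM in all libraries of the higher tissue). The last was set for all 5 scalings, which left 3 marrow genes and 0 adipose genes, and was repeated with 3 scalings after that was seen. List members named beyond this rule, such as Dlx5, Il6 and Gata6, were chosen after their values were seen. Of 667 list entries, 665 were in the table. Of 46983 gene names, 40115 matched the reference table of mouse gene names directly, 4029 did once a dot was read as the hyphen or other mark it replaced, and 2839 (6.04%) did not match. Promoter windows come from RefSeq on GRCm38.p6.

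Counts of 11267 genes were simulated with the median dispersion of these libraries (1.66). The HFD fit recovered 45 of 67 genes changed by a log2 of 8 (67.2%), 0 of 66 changed by 4 and 0 of 67 changed by 2. It made 0 false calls among the unchanged genes. At a dispersion of 0.1 it recovered 73 of 75 genes (97.3%) changed by 2, with 6 false calls. Recovery and false calls describe simulated counts only, in which every gene had the same dispersion and no scaling difference between tissues was put in. In the real fit with TMM factors genes with smaller differences passed, such as Fn1 at a log2 difference of -1.49. The rate of false calls under the low state of marrow genes and the scaling differences between tissues was not tested.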

Additional observations from a re-analysis of the deposited data

Results flagged for a closer look

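In 11 of 62 groups of 4 libraries, for the panel genes and the library measures, the highest or lowest library stood apart by Dixon's criterion, where chance gives about 1 in 20. Marrow 1_3 stood alone for Sp7 at 146.8 CPM, Cxcl12 at 8921.4 CPM, Lepr at 1225.2 CPM, Pparg at 116.05 CPM and Ptprc at 267.4 CPM. Marrow 5_11 stood alone for Pi16 at 147.89 CPM and Cd74 at 13.235 CPM, and marrow 23_28 for S100a8 at 17468 CPM. In adipose, 23_28 stood alone for Pparg at 48.558 CPM and Col2a1 at 2.9509 CPM, and 14_17 for Lepr at 2.2846 CPM.

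For 5 named genes the tissue difference (log2, adipose minus marrow) of the HFD arm differed from that of the glutamine arm in the edgeR test over all 18 libraries with TMM factors, at an adjusted p of 0.0432. The HFD difference minus the glutamine difference was 11.6988 for Acan, -9.35987 for the vessel gene Egfl7, -10.9149 for the muscle gene Mylpf, 9.4106 for the osteoclast factor Nfatc1 and 8.01051 for Rgs1. With RLE factors none passed, at an adjusted p of 0.0501 for the first 4 and 0.0540 for Rgs1. Acan illustrates the size, since it reached 10 CPM in 4 of 5 glutamine marrow libraries and in none of the 4 HFD marrow libraries. Nfatc1 and Rgs1 reached it in 4 and 2 of the 5 and also in no HFD marrow library. Egfl7 and Mylpf each rest on 1 HFD marrow library, at 717 CPM in 23_28 and 458 CPM in 14_17. Neither reached 10 CPM in any glutamine marrow library.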

How the results depend on the processing

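Of 32 called genes followed through 22 alternatives, all 32 passed with RLE factors and with no factors, because the rule that chose them required it. All 32 kept direction and call in each of 8 fits without 1 library, with robust fitting and in the joint fit. They also did with thinned counts and without both marrow libraries with the fewest genes. With TMMwsp factors 22 did, with upper-quartile factors 5, with no filter 14 with the filter at 10 CPM 0 of 28, with counts under 100 set to 0 26 of 31, with DESeq2 30 of 30, with limma-voom 31 and with the replicate block 31. Counts of calls moved more. All calls (5132) became 112 with upper-quartile factors, 2212 with TMMwsp, 593 with no filter, 0 with the 10 CPM filter and 2836 with limma-voom. Adipose calls (4418) became 1525 with RLE, 73 with upper-quartile, 397 with TMMwsp, 14 with no filter, 0 with the 10 CPM filter, 2645 with DESeq2 and 2443 with limma-voom. Marrow calls (714) became 3418 with RLE, 39 with upper-quartile, 1815 with TMMwsp, 108 with no factors, 0 with the 10 CPM filter, 3284 with DESeq2, 393 with limma-voom, 32 with counts under 100 set to 0 and 1970 without both thin marrow libraries. With the replicate block they became 183, beside 4440 in adipose. Libraries of the same number pair did not deviate together (correlations 0.036, 0.00094, -0.0012 and -0.0019, and only 1_3 correlated best with its own number), so pairing was not shown, although the weak likeness among marrow libraries limits this check. Without 1 library at a time, marrow calls were 321 to 1019, calls under 3 scalings 342 to 1386 in adipose and 71 to 192 in marrow, and marrow genes without overlap 90 to 222. Without both thin marrow libraries, the last 2 were 449 and 756. The adipose excess in the mean number of genes present was 6324 at 10 CPM, 9509 at 1 CPM and 184 at 100 CPM. At 100 CPM the ranges overlapped, and marrow 1_3 and 5_11 held more genes than any adipose library. The causes of these changes were not tested. With every library thinned to the smallest total, the counts of calls with TMM factors stayed within 1.5 times of those printed.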
